A study of Mus musculus with 6 samples.

Results

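The genes described here are 9 genes of macrophage fusion and of the osteoclast programme: Ocstamp, Dcstamp, Atp6v0d2, Acp5, Nfatc1, Tnfrsf11a, Oscar, Trem2 and Tyrobp. They were picked by name from the 57180 genes of the deposited table, and the set was chosen by a readout already in view, the lower values of Ocstamp and Dcstamp in macrophages given IL-4 and CGRP. Their values in that contrast are therefore a description, with no test of their own. RNA was sequenced from macrophages grown out of the marrow of wild-type (WT) mice 6 to 8 weeks old, using M-CSF at 20 ng/mL over 7 days. Cultures then received either IL-4 at 20 ng/mL (the group IL-4, 3 libraries) or IL-4 together with the sensory neuropeptide CGRP (the group IL-4+CGRP, 3 libraries), in both cases for 24 h. For the combination the labels give 1 concentration, 20 ng/mL, and do not make clear whether it is that of IL-4, of CGRP or of each, so an equal IL-4 dose in both groups is not certain. Both groups thus had M-CSF and IL-4, no group went without IL-4, and RANKL, the cytokine that drives osteoclast formation, is not among the additions the labels name. Nothing in the labels ties the replicates to separate mice or cultures, so the spread between libraries may be technical.

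Macrophages and osteoclasts arise from the same myeloid precursors. RANKL binding to its receptor RANK, together with signals through adaptors that carry an activation motif called ITAM, such as DAP12, raises the transcription factor NFATc1, which switches on the fusion proteins DC-STAMP and OC-STAMP and the enzymes and proton pumps that dissolve bone. IL-4 makes macrophages fuse into multinucleated giant cells, a process that also uses DC-STAMP, and in osteoclast cultures IL-4 is known to hold back NFATc1.

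Libraries held between 20088895 and 24060444 counts. Levels are given as CPM, the usual counts-per-total unit, on library totals scaled by TMM factors, and 13260 genes were tested with edgeR. Of those, 511 (3.85%) had an adjusted p under 0.05 and are referred to as called: with CGRP added, 307 (2.32%) were higher and 204 (1.54%) were lower. Of the calls 60.1% were higher, and 71.2% when totals alone were used for scaling. IL-4+CGRP replicate 2 stood apart: over genes its correlation with IL-4 replicate 1 (0.9882) exceeded those with both libraries of its own group (0.9876 and 0.9869). Without it 1865 genes were called.

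Oscar was at or near 0, and 8 of the 9 genes passed the count filter. Of these 8, 4 were called lower (Ocstamp, Dcstamp, Atp6v0d2 and Acp5), 0 were called higher and 4 were not called (Nfatc1, Tnfrsf11a, Trem2 and Tyrobp). The background over all tested genes was 1.54% called lower and 2.32% called higher. Because the contrast was in view when the genes were chosen, nothing is read from that difference. The 2 groups did not overlap for 5 of the 8 genes, against 21.0% of all tested genes. The median log2 fold change of the 8 was -0.19, and that of all tested genes was 0.00, with quartiles of -0.11 and 0.11.

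**Figure D1:**
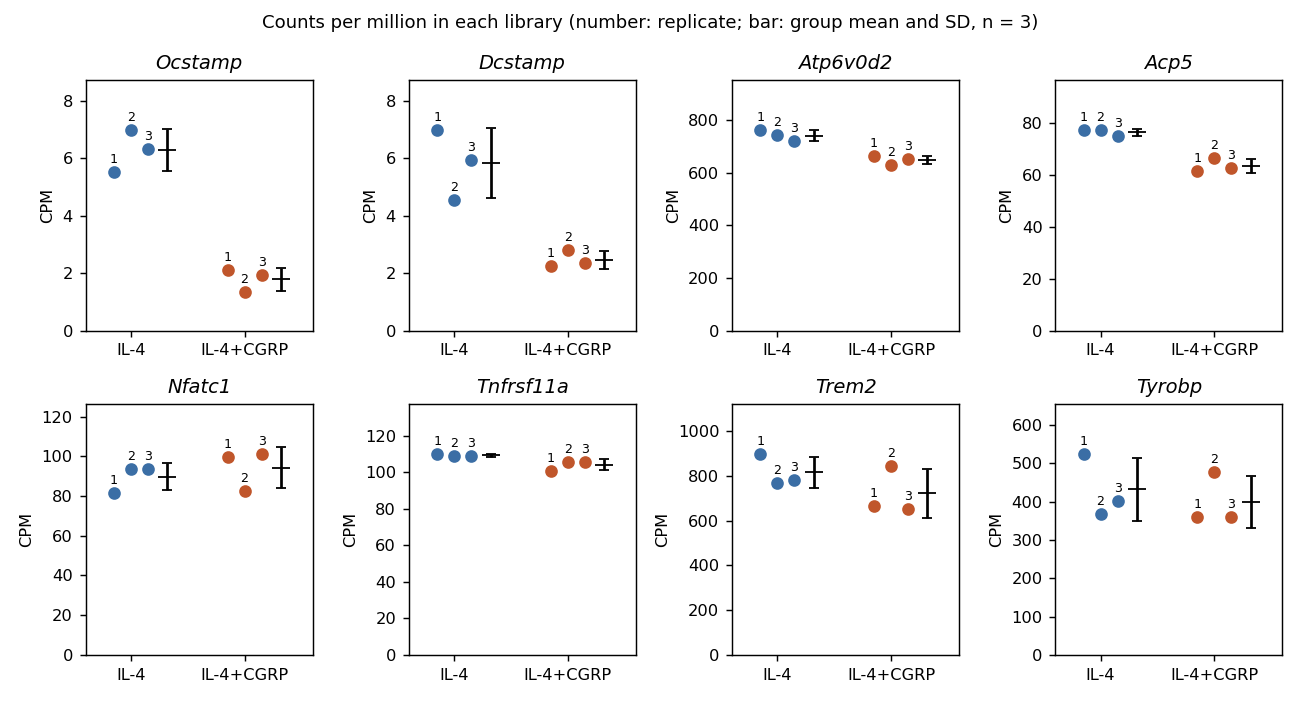
CPM of the 8 tested genes in each library, on axes that start at 0; numbers beside points are replicate numbers, and the black bar is the group mean with its SD (n = 3). Ocstamp and Dcstamp lay far lower in all IL-4+CGRP libraries, Atp6v0d2 and Acp5 slightly lower, and Trem2 and Tyrobp were highest in IL-4 replicate 1 and IL-4+CGRP replicate 2.

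Promoter sequences of 4 of the 9 genes (Acp5, Oscar, Tnfrsf11a and Trem2) were matched by symbol in RefSeq's table for build GRCm38.p6, each window running from 250 bases before a start site to 50 after it. Those of Ocstamp, Dcstamp, Atp6v0d2, Nfatc1 and Tyrobp were not matched. A window is shown for Acp5, as the only gene among the 4 called lower with an entry, and for Trem2, as the gene with the highest level per length. Capitals mark matches, on either strand, to 5 motifs: the AP-1 site TGANTCA, the NFAT core GGAAAA, the E-box CACGTG bound by MITF, the CRE core TGACG and the PU.1 core GAGGAA. Matches to the NFAT and PU.1 cores can overlap.

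Acp5, the most upstream of its 3 start sites, minus strand of chr9:22135697-22135996: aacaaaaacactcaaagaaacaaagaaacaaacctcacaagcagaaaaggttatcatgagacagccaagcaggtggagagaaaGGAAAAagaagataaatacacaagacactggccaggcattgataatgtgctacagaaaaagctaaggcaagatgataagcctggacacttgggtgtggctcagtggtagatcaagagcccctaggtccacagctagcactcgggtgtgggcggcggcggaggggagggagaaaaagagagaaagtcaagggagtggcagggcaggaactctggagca

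Trem2, plus strand of chr17:48346151-48346450: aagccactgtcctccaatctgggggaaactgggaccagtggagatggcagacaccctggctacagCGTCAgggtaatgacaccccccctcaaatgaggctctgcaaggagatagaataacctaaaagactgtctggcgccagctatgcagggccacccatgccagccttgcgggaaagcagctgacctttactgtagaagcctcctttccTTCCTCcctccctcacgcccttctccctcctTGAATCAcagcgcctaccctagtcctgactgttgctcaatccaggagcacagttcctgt

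The Acp5 window held 1 NFAT core, and its other 2 windows held no match. The Trem2 window held, from 5′ to 3′, a CRE core, a PU.1 core and an AP-1 site, 1 of each. Among all 32851 promoter windows of this length, 23.4% held the NFAT core, 28.3% the PU.1 core, 20.8% the CRE core, 7.81% the AP-1 site and 7.15% the E-box. These matches describe the letters only. No binding was measured, and the counts do not tell which Acp5 start site was in use.

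The 2 fusion proteins had the largest differences of the set. Ocstamp (ENSMUSG00000027670), which encodes the osteoclast stimulatory transmembrane protein that cells need to become multinucleated, measured 5.52, 6.99 and 6.34 CPM in the IL-4 libraries and 2.10, 1.33 and 1.94 CPM in the IL-4+CGRP libraries (replicates in the order 1, 2, 3, as throughout). Every IL-4+CGRP library was below every IL-4 library, with the lowest value in IL-4+CGRP replicate 2. The means were 6.28 ± 0.740 and 1.79 ± 0.407 CPM (SD, n = 3), 3.49-fold lower in IL-4+CGRP, with a log2 fold change of -1.80 ± 0.19 (SE). It had the lowest log2 fold change among the 11035 tested genes whose log2 CPM averaged 1 or more. Among the 204 genes called lower, with no such limit on level, it stood at place 4 from the lowest.

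Dcstamp (ENSMUSG00000022303), which encodes the dendritic cell-specific transmembrane protein needed for fusion of both osteoclasts and macrophage giant cells, measured 6.98, 4.55 and 5.92 CPM in the IL-4 libraries and 2.23, 2.80 and 2.34 CPM in the IL-4+CGRP libraries. The groups were again separate, and here the IL-4 libraries were the more spread, with IL-4 replicate 2 the lowest of them. The means were 5.82 ± 1.22 and 2.46 ± 0.303 CPM (SD, n = 3), 2.37-fold lower in IL-4+CGRP, with a log2 fold change of -1.24 ± 0.19 (SE). By log2 fold change it stood at place 9 from the lowest among the same 11035 genes, and at place 16 among the 204 genes called lower.

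Both fusion genes were rare transcripts. The deposited estimated counts of Ocstamp were 109, 149 and 152 in IL-4 and 51, 29.24 and 43 in IL-4+CGRP, and those of Dcstamp were 138, 97 and 142 against 54, 61 and 52. The value of 29.24 is not whole, and how reads shared between genes were assigned is not given in the sources used here. GENCODE transcripts of Ocstamp hold stretches of at least 75 bases and 95% identity with transcripts of 5 other genes, the longest of 191 bases, while those of Dcstamp hold none. Both genes remained called lower under all 17 alternative analyses, including each fit without 1 library. Over these the log2 fold change ran from -1.95 to -1.63 for Ocstamp and from -1.39 to -1.10 for Dcstamp.

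Within a library the ratio of Ocstamp to Dcstamp, per kilobase of gene length, was 0.431, 0.839 and 0.585 in IL-4 and 0.516, 0.260 and 0.452 in IL-4+CGRP. The ranges of this ratio overlapped between groups, so the data do not separate the size of the difference in one fusion gene from that in the other. Dcst1 and Dcst2, relatives with a DC-STAMP domain known from sperm and egg fusion, were too low to be tested, at 0.0988 and 0.0156 CPM on average in IL-4 and 0.0591 and 0 CPM in IL-4+CGRP.

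**Figure D2:**
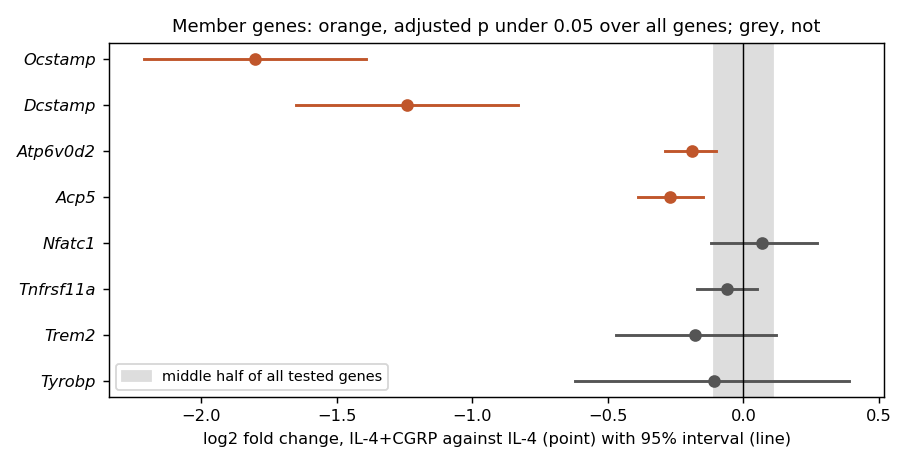
Log2 fold change of the 8 tested genes, IL-4+CGRP against IL-4, with the 95% interval from the edgeR fit; the grey band runs from the lower to the upper quartile of all tested genes. Ocstamp (-1.80) and Dcstamp (-1.24) lie apart from the other 6, which are between -0.27 and 0.07.

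Among the effectors of acid and bone resorption, Atp6v0d2 (ENSMUSG00000028238) encodes the d2 subunit of the vacuolar proton pump, the form found in osteoclasts and some macrophages, and takes part in fusion. It was an abundant transcript, at 762, 741 and 718 CPM in IL-4 and 661, 629 and 651 CPM in IL-4+CGRP. All 3 IL-4+CGRP libraries were below all 3 IL-4 libraries, although the distance was small. The means were 740 ± 21.6 and 647 ± 16.0 CPM (SD, n = 3), 1.14-fold lower, with a log2 fold change of -0.19 ± 0.04 (SE).

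The common d subunit Atp6v0d1 measured 193 ± 2.43 and 191 ± 9.43 CPM (SD, n = 3), with a log2 fold change of -0.01 ± 0.05 (SE; edgeR adjusted p = 0.92). Per kilobase, Atp6v0d2 exceeded Atp6v0d1 by 2.56, 2.43 and 2.40 times in the IL-4 libraries and by 2.30, 2.00 and 2.23 times in the IL-4+CGRP libraries. The d2 form was thus the more abundant in all 6 libraries, and its excess was smaller in each IL-4+CGRP library than in any IL-4 library.

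Acp5 (ENSMUSG00000001348) encodes tartrate-resistant acid phosphatase, the enzyme whose stain marks osteoclasts and which macrophages also make. It measured 77.2, 77.0 and 74.8 CPM in IL-4 and 61.3, 66.4 and 62.5 CPM in IL-4+CGRP, groups that did not overlap. The means were 76.3 ± 1.32 and 63.4 ± 2.65 CPM (SD, n = 3), 1.20-fold lower, with a log2 fold change of -0.27 ± 0.05 (SE). A noncoding gene on the opposite strand, 6530413G14Rik, overlaps its exons, and in the table it held 1 count in IL-4 replicate 3 and 0 in the other 5 libraries.

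The calls of Atp6v0d2 and Acp5 were less stable than those of the fusion genes. Both ended when any one library other than IL-4+CGRP replicate 2 was left out, and with the replicate number as a block, and the Atp6v0d2 call also ended on library totals alone. Their log2 fold changes stayed between -0.22 and -0.15 for Atp6v0d2 and between -0.30 and -0.22 for Acp5 over all 17 alternatives.

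Of the receptors, Tnfrsf11a (ENSMUSG00000026321), which encodes RANK, measured 110, 109 and 109 CPM in IL-4 and 101, 106 and 106 CPM in IL-4+CGRP. The groups did not overlap, but they differed by little: the means were 109 ± 0.711 and 104 ± 2.58 CPM (SD, n = 3), a log2 fold change of -0.06 ± 0.05 (SE) with a 95% interval from -0.17 to 0.05. It was not called in any of the 17 alternatives. Its transcripts share near-identical stretches of up to 91 bases with 4 other genes, and 3 of its deposited counts are not whole, so its counts carry that uncertainty as well.

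Oscar (ENSMUSG00000054594), a collagen receptor of osteoclasts that signals through an ITAM adaptor, had 2 counts in IL-4+CGRP replicate 1 and 0 in the other 5 libraries. A count of 0 allows up to 0.125 to 0.149 CPM in these 5 libraries (3 counts of the total, counting error only), and the 2 counts were 0.0825 CPM. Oscar was not tested, and no difference was detectable at this depth.

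Nfatc1 (ENSMUSG00000033016), the transcription factor at the head of the osteoclast programme, measured 81.7, 93.8 and 93.5 CPM in IL-4 and 99.6, 82.3 and 101 CPM in IL-4+CGRP. The lowest values were in IL-4 replicate 1 and IL-4+CGRP replicate 2, and the groups overlapped. The means were 89.7 ± 6.92 and 94.4 ± 10.5 CPM (SD, n = 3), a log2 fold change of 0.07 ± 0.09 (SE) with a 95% interval from -0.12 to 0.27. Its value was above 0 in all 17 alternatives, between 0.01 and 0.16, and called in none.

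Trem2 and Tyrobp encode a lipid-sensing receptor and DAP12, the adaptor through which it signals, a pair that supports both osteoclast formation and macrophage survival. Trem2 (ENSMUSG00000023992) measured 897, 770 and 780 CPM in IL-4 and 665, 846 and 654 CPM in IL-4+CGRP. Tyrobp (ENSMUSG00000030579) measured 524, 369 and 403 CPM in IL-4 and 359, 477 and 361 CPM in IL-4+CGRP. For both, IL-4 replicate 1 was the highest library, IL-4+CGRP replicate 2 was the highest of its group, and the groups overlapped.

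The Trem2 means were 816 ± 70.4 and 722 ± 108 CPM (SD, n = 3), a log2 fold change of -0.18 ± 0.12 (SE) with a 95% interval from -0.47 to 0.12. The Tyrobp means were 432 ± 81.5 and 399 ± 67.8 CPM (SD, n = 3), a log2 fold change of -0.11 ± 0.19 (SE) with a 95% interval from -0.62 to 0.39. Neither was called. Without IL-4+CGRP replicate 2, Trem2 was called lower with a log2 fold change of -0.31, and without both that library and IL-4 replicate 1 it was called at -0.23.

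The 6 libraries differed in how short genes read, and Trem2 (1056 bases) and Tyrobp (597 bases) are short. Relative to each gene's mean over the 6 libraries, the 1674 tested genes under 1200 bases had median log2 deviations of 0.18, -0.01 and -0.01 in the IL-4 libraries and of -0.13, 0.17 and -0.15 in the IL-4+CGRP libraries. Trem2 deviated by 0.23, 0.01 and 0.03, then by -0.20, 0.15 and -0.22, which follows the same libraries. Tyrobp deviated by 0.35, -0.16 and -0.03, then by -0.20, 0.22 and -0.19.

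Nfatc1, at 4591 bases, went the other way, with -0.17, 0.03 and 0.03, then 0.12, -0.16 and 0.14. The 5928 tested genes of 3000 bases and over had medians between -0.05 and 0.05. Across the 6 libraries log2 CPM of Trem2 correlated with that of Tyrobp at r = 0.91 and with that of Nfatc1 at r = -0.96, values that share the libraries and are given as a description. With each library's trend with gene length removed, the log2 fold changes were -0.09 for Trem2, 0.03 for Tyrobp and 0.05 for Nfatc1, none of them called. What sets the trend with length was not tested.

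**Figure D3:**
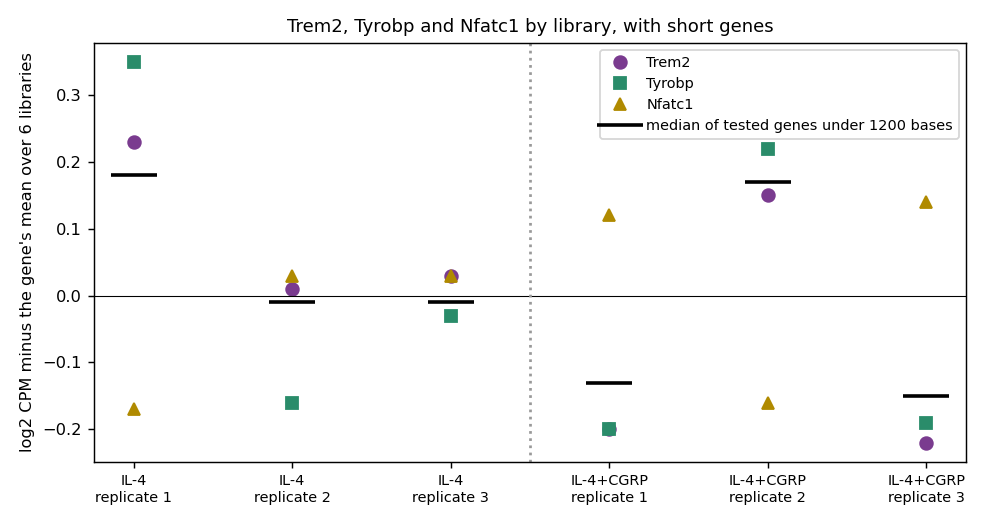
Log2 CPM of Trem2, Tyrobp and Nfatc1 in each library minus the gene's mean over the 6 libraries; black dashes are the median of the 1674 tested genes under 1200 bases. Trem2 and Tyrobp are high and Nfatc1 is low in IL-4 replicate 1 and IL-4+CGRP replicate 2, where short genes as a class are high.

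Per kilobase of the gene length given in the table, the levels in IL-4 fell into clear steps. Trem2 (773 ± 66.6 CPM per kilobase; SD, n = 3) and Tyrobp (724 ± 137) came first and overlapped, followed by Atp6v0d2 (292 ± 8.52) and Acp5 (52.8 ± 0.909). Tnfrsf11a (21.7 ± 0.141) and Nfatc1 (19.5 ± 1.51) were next, with Tnfrsf11a higher in each IL-4 library, and Dcstamp (2.91 ± 0.610) and Ocstamp (1.72 ± 0.202) came last of the genes with counts.

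In IL-4+CGRP the order of the group means was the same. There the levels were 684 ± 102 for Trem2, 668 ± 114 for Tyrobp, 255 ± 6.30 for Atp6v0d2, 43.8 ± 1.83 for Acp5, 20.8 ± 0.512 for Tnfrsf11a, 20.6 ± 2.29 for Nfatc1, 1.23 ± 0.152 for Dcstamp and 0.490 ± 0.111 CPM per kilobase for Ocstamp. Trem2 and Tyrobp again overlapped, and so did Tnfrsf11a and Nfatc1. The 2 genes with large differences were therefore the 2 with the lowest levels per length among those tested.

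**Figure D4:**
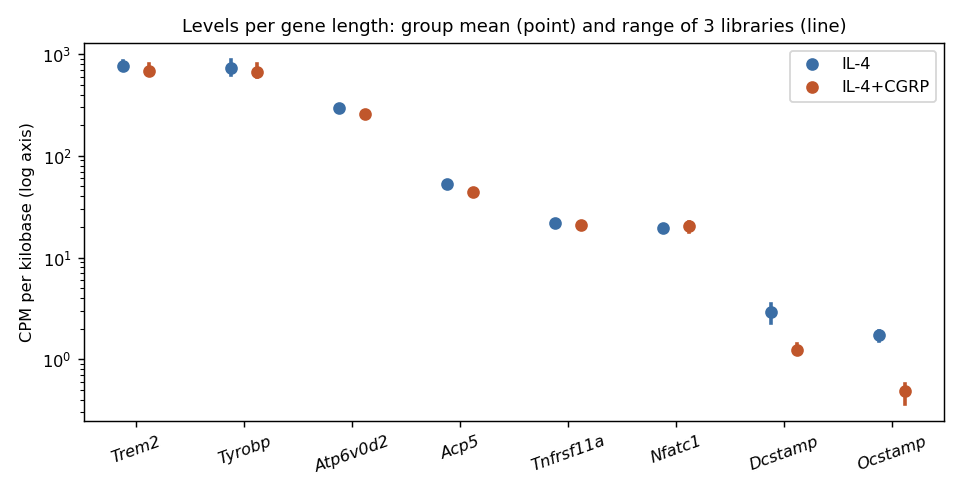
Level of each gene in CPM per kilobase of gene length on a log axis, group mean (point) and range of the 3 libraries (line). The genes span from 773 (Trem2) to 1.72 (Ocstamp) in IL-4, and only Dcstamp and Ocstamp show a gap between groups that is wide on this axis.

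The label of an osteoclast programme was set against marker genes. All 10 macrophage markers were detected and tested, and their summed level ran from 15196 to 15412 CPM in IL-4 and from 15714 to 15920 CPM in IL-4+CGRP. Of the 10, edgeR called 3 higher, Cd14 (1.53-fold, adjusted p = 5.9e-04), Itgam (1.33-fold, adjusted p = 0.0012) and the mannose receptor Mrc1 (1.24-fold, adjusted p = 0.0033), and 0 lower, so these markers moved between the groups as well, and their part in the values of the 9 genes was not tested. Csf1r, the M-CSF receptor of macrophages, was at 3486 ± 91.8 CPM in IL-4 and 3711 ± 132 CPM in IL-4+CGRP (adjusted p = 0.28 by edgeR; SD, n = 3). Calcr, the calcitonin receptor of mature osteoclasts, had 0 counts in all 6 libraries. The collagen protease Ctsk was at 12.9 ± 1.69 and 14.4 ± 0.252 CPM (adjusted p = 0.53 by edgeR; SD, n = 3) and the gelatinase Mmp9 at 2.01 ± 0.805 and 1.96 ± 0.0235 CPM (adjusted p = 0.98 by edgeR; SD, n = 3). The osteoclast list held 11 markers, of which 9 were tested, 4 were called lower (all genes of the set) and 0 higher. Its integrin Itgb3 was at 37.5 ± 2.52 and 43.4 ± 0.613 CPM, with groups that did not overlap (adjusted p = 0.12 by edgeR; SD, n = 3). Car2 was at 8.43 ± 0.582 and 6.93 ± 1.23 CPM (adjusted p = 0.36 by edgeR; SD, n = 3). The genes described here were thus read in cells with macrophage markers and with part, but not the full set, of the osteoclast markers.

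Markers of other cell types were checked because marrow cultures can hold them. Of 9 dendritic cell markers none was at 0 in every library, 7 were tested, 2 were called lower (Itgax, CD11c, and Siglech) and 1 higher (Ccr7). Their summed level ran from 191 to 194 CPM in IL-4 and from 107 to 110 CPM in IL-4+CGRP. Itgax, which macrophages express as well, made up most of it, at 149 ± 3.91 and 62.9 ± 5.35 CPM (adjusted p = 1.3e-06 by edgeR; SD, n = 3). The part of such cells in the fusion gene values was not tested, and in bulk RNA fewer cells of a type and less RNA per cell cannot be told apart.

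Neutrophil markers summed to 37.1 to 45.9 CPM in IL-4 and 34.3 to 45.1 CPM in IL-4+CGRP with Ly6g at 0, and B cell markers to 31.4 to 34.4 and 29.9 to 32.6 CPM. Markers of T or NK cells (74.1 to 82.8 and 82.7 to 86.8 CPM, nearly all Cd4) and of mast cells or basophils (6.57 to 7.38 and 5.18 to 5.86 CPM) were not called either. For stromal cells or osteoblasts, the usual source of RANKL, the sums were 46.7 to 52.1 and 51.8 to 57.3 CPM with Bglap at 0. Sums of erythroid or megakaryocyte markers (40.3 to 42.6 and 58.4 to 80.5 CPM, with Hbb-bs at 0) and of endothelial markers (105 to 122 and 144 to 164 CPM) were higher in IL-4+CGRP, and Pecam1 and Kdr of the latter were called higher.

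The wider pathway was read from 8 lists, which hold 135 tested genes outside the 9. Of these, 5 were called higher and 9 lower, against a background of 2.32% and 1.54%, and their median log2 fold change was -0.01. The same 2 shares are the background for the counts of each list below. These lists were drawn up with earlier results of these data known, so nothing is read from counts that differ from it.

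Upstream, in RANK signalling, 0 of 21 tested genes were called by edgeR, DESeq2 or limma-voom, with 4 at an unadjusted edgeR p under 0.05 and a median log2 fold change of 0.06. The smallest p-values belonged to Map3k14, the NF-kB inducing kinase, at 43.6 ± 2.82 and 51.0 ± 1.66 CPM (adjusted p = 0.095 by edgeR; SD, n = 3), and to Tab2, an adaptor of the kinase TAK1, at 139 ± 3.29 and 158 ± 13.7 CPM (adjusted p = 0.18 by edgeR; SD, n = 3). Without IL-4+CGRP replicate 2, 4 genes of the list were called higher. Tnfsf11, which encodes RANKL, was at 0.196 ± 0.139 and 0.177 ± 0.139 CPM (SD, n = 3) and not tested. The decoy receptor Tnfrsf11b (osteoprotegerin) was at 1.34 ± 0.422 and 0.935 ± 0.180 CPM (adjusted p = 0.48 by edgeR; SD, n = 3).

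In ITAM adaptor signalling 2 of 18 tested genes fell and 0 rose, with a median log2 fold change of -0.02. Blnk, a scaffold that links the kinase Syk to phospholipase C, fell 1.22-fold (edgeR adjusted p = 0.020), and Cd300lb, a receptor that pairs with DAP12, fell 1.12-fold (edgeR adjusted p = 0.047). The Cd300lb call ended under 11 of 17 alternatives, DESeq2 and limma-voom among them, and the Blnk call ended without IL-4 replicate 2 or 3 and with the replicate block. Fcer1g, the other main ITAM adaptor of macrophages, measured 511 ± 46.5 and 446 ± 80.7 CPM (adjusted p = 0.60 by edgeR; SD, n = 3), and Syk 517 ± 21.1 and 522 ± 6.89 CPM (adjusted p = 0.91 by edgeR; SD, n = 3).

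Among NFAT, AP-1 and MITF factors edgeR called 1 of 20 tested genes, limma-voom 1 and DESeq2 2, all higher, and edgeR called 3 higher with the length trend removed, with no count filter or without IL-4+CGRP replicate 2. Fosl2 (Fra-2, an AP-1 subunit) rose 1.20-fold from 81.1 ± 2.56 to 97.2 ± 0.950 CPM (adjusted p = 0.013 by edgeR; SD, n = 3), a call that ended without any one library other than IL-4+CGRP replicate 2, and with the replicate block. In the main edgeR fit the 3 tested relatives of Nfatc1 were not called, and their calls under the alternatives are not given here. Nfat5, the member of the family that responds to osmotic stress, had the largest difference, at 42.7 ± 3.16 and 57.0 ± 8.65 CPM with groups that did not overlap (1.33-fold; adjusted p = 0.088 by edgeR; SD, n = 3). Nfatc2 measured 77.9 ± 4.31 and 95.2 ± 12.7 CPM (adjusted p = 0.16 by edgeR; SD, n = 3), and Nfatc3 59.2 ± 3.61 and 60.8 ± 6.66 CPM (adjusted p = 0.85 by edgeR; SD, n = 3). The median of this list was -0.02.

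Of 11 repressors of osteoclast differentiation 2 fell and 0 rose, and the median was 0.01. They were the inhibitors of helix-loop-helix factors Id2 (1.29-fold, edgeR adjusted p = 0.0098) and Id3 (1.66-fold, edgeR adjusted p = 0.013). Both calls ended on removal of IL-4 replicate 1, of IL-4 replicate 2 and of IL-4+CGRP replicate 1. Irf8, a transcription factor that keeps precursors in the macrophage state, had a log2 fold change of 0.03 ± 0.05 (SE; edgeR adjusted p = 0.80).

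Downstream, 1 of 14 tested genes of the bone resorption machinery was called: Mmp14, a membrane-bound collagenase, rose 1.3-fold from 76.2 ± 2.83 to 98.7 ± 2.44 CPM (adjusted p = 0.0020 by edgeR; SD, n = 3). The list's median was -0.01. Its direction was opposite to that of Acp5 and Atp6v0d2. Of 18 tested proton pump subunits other than Atp6v0d2, edgeR called 0, limma-voom 0 and DESeq2 1 (lower), and 4 had an unadjusted edgeR p under 0.05. Of these 18, 17 had a log2 fold change below 0, against 50.8% of all tested genes. Their median was -0.07, or -0.04 with library totals alone, where 15 were below 0, and -0.06 with the length trend removed, where 12 were below 0 and 3 were called lower.

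Among other genes of macrophage fusion, 2 of 30 tested were called higher and 5 lower, against 2.32% and 1.54% of all tested genes. Their median was -0.01. The IL-4 receptor chain Il4ra rose 1.67-fold (edgeR adjusted p = 5.4e-06) and the integrin Itgam (CD11b) 1.33-fold (edgeR adjusted p = 0.0012). Kcnn4, a calcium-gated potassium channel needed for giant cell formation, fell 1.52-fold from 85.9 ± 2.70 to 56.4 ± 2.73 CPM (adjusted p = 1.1e-04 by edgeR; SD, n = 3), and the scavenger receptor Cd36 fell 1.22-fold (edgeR adjusted p = 0.0055). These 4 calls held under all 17 alternatives.

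The other lower fusion genes, named after their values were seen, were the chemokine receptor Ccr2 (1.3-fold), the tetraspanin Cd9 (1.24-fold) and the integrin Itgb2 (1.12-fold), with edgeR adjusted p = 0.018, 0.0094 and 0.049. The calls of Ccr2 and Cd9 ended without IL-4 replicate 1 or 2 and with the replicate block, that of Ccr2 also when either IL-4 replicate 3 or IL-4+CGRP replicate 1 was left out, and that of Itgb2 under 12 of 17 alternatives. Among 5 tested regulators and relatives of DC-STAMP, Sbno2, whose product is known to raise Dcstamp transcription, rose 1.21-fold (edgeR adjusted p = 0.013). That is the direction opposite to Dcstamp, and the Sbno2 call ended without any one library other than IL-4+CGRP replicate 2, and with the replicate block.

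**Figure D5:**
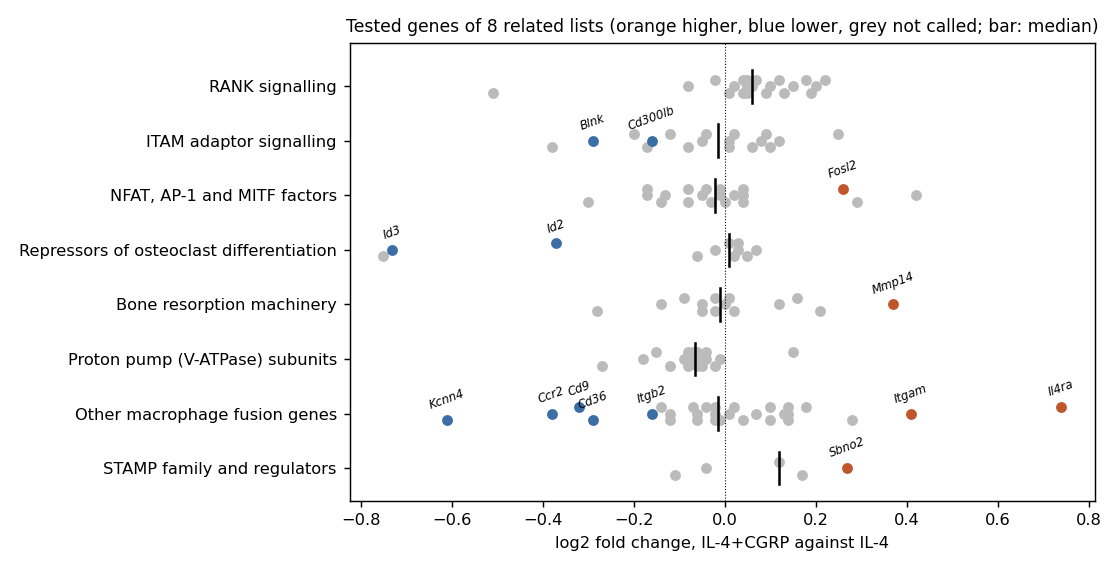
Log2 fold change of each tested gene in 8 related lists, without the 9 genes of the set; orange genes were called higher in IL-4+CGRP, blue lower, grey not called, and the bar is the list's median. Medians lie between -0.07 and 0.12, and called genes point in both directions.

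Genes whose log2 CPM followed the fusion genes most closely over the 6 libraries were sought among 10351 other tested genes with an established name and a log2 CPM that averaged 1 or more. For Ocstamp these were Actr3, a subunit of the actin-branching Arp2/3 complex (Pearson r = 0.999), Itgb2, the sugar phosphate transporter Slc37a2, the hydroxylase Asph and the lysosomal lipase Lipa (r = 0.996 to 0.997). For Dcstamp they were Spc25, a kinetochore protein (r = 0.999), the G protein regulator Rgs1, the proton pump subunit Atp6v1a, the inositol synthase Isyna1 and the single-strand DNA-binding protein Nabp1 (r = 0.991 to 0.995). All 10 were lower in the mean of IL-4+CGRP, from 1.05-fold for Atp6v1a to 1.5-fold for Asph, and so by less than either fusion gene. Slc37a2, Spc25, Atp6v1a and Isyna1 were not called (edgeR adjusted p = 0.16, 0.1, 0.46 and 0.19). The 2 sets of 5 shared no gene. The 6 libraries fall in 2 groups and share their depth, so these correlations hold the group difference itself and are given as a description.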

How the data were processed

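The data are one deposited table of RNA sequencing with 57180 genes and 6 library columns. The submitters' processing notes name fastp, HISAT2, StringTie and build GRCm39. Versions, the counting step and its strand use were not given in the sources used here. The values the authors deposited are taken to be expected counts with no normalization, since library totals differ, and 23.3% to 26.6% of the values above 0 in a library are not whole (tolerance 1e-06). They were rounded before testing.

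Genes were filtered with filterByExpr (13260 kept), scaled with TMM and compared in edgeR 4.0.16 under R 4.3.3 by the robust quasi-likelihood F test, two-sided and on group alone. Benjamini-Hochberg adjusted p-values cover the whole table, and those under 0.05 are calls. An SE is the size of the log2 fold change over the root of F. Log2 CPM used a prior count of 2. CPM per kilobase uses the table's gene length. Transcripts were compared with BLAST 2.17.0 (GENCODE vM21). The scripts were tested on simulated data.

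The set, the lists, the tests and the naming rule were chosen with earlier results of these data known; motifs, annotation terms and the length correction were chosen after seeing the data. Named are all 9 genes, up to 4 called genes per pathway list with the smallest p (or 2 where none was called), relatives of the set, and for each fusion gene the 5 most correlated genes; other genes were named after their values were seen, for their role or to complete a count. Alternatives were other scalings and filters, DESeq2 1.42.0, limma-voom (limma 3.58.1), a fit that was not robust, the replicate block, and leaving out libraries.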

Additional observations from a re-analysis of the deposited data

How the results depend on the processing

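Counts of calls moved more than the fold changes did. The numbers of genes called higher in IL-4+CGRP (307) and genes called lower in IL-4+CGRP (204) became 584 and 434 without a count filter, 471 and 389 once the trend with gene length was removed, and 1066 and 1187 without both IL-4 replicate 1 and IL-4+CGRP replicate 2. Leaving out 1 library gave 140 to 915 higher and 80 to 950 lower, the highest of each without IL-4+CGRP replicate 2. Of the 9 genes described, 4 were called lower, and 2 to 5 when 1 library was left out: 5 (Trem2 added) without IL-4+CGRP replicate 2 and 2 without any one of the others. Genes of the pathway lists called higher (5) became 8 with no count filter, 9 with the length trend removed, 14 without the pair of libraries and 3 to 16 without 1 library. Those called lower (9) became 14, 26 and 2 to 21 with the trend removed, without the pair and without 1 library. The cause of these shifts was not tested.

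Whether the replicate numbers pair the libraries is not given by the labels. Same-numbered libraries had deviations from their group means that correlated at -0.19, -0.18 and 0.13. IL-4 replicate 1 correlated best with IL-4+CGRP replicate 2 (0.29), the 2 libraries in which short genes were high. With 3 libraries per group and that shared trend, these values cannot decide whether libraries were paired. With the replicate block 176 genes were called higher and 86 lower, 2 of the 9 genes (Ocstamp and Dcstamp) and 4 pathway list genes among the lower.

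The Tyrobp log2 fold change turned positive, to 0.03 with the length trend removed and 0.05 without IL-4 replicate 1, and was called in neither; without 1 library it ran from -0.26 to 0.05. The cause was not tested. Depth limits Oscar, Tnfsf11, Dcst1 and Dcst2, which were too low to test.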

Other observations

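Annotation terms in the deposited table were chosen after the values were seen, and several of them hold genes of the set itself. The lower calls of Ocstamp, Dcstamp and Acp5 within them repeat the values given above and add no further support. Over all tested genes, 2.32% were called higher and 1.54% lower. Of 22 tested genes annotated to osteoclast differentiation, 3 were called higher and 1 lower by edgeR (the lower being Dcstamp), with a median log2 fold change of -0.01. The higher ones were Trf (transferrin, 1.21-fold, adjusted p = 0.0027), Sbno2 (1.21-fold, adjusted p = 0.013) and Cd300lf (an inhibitory receptor, 1.3-fold, adjusted p = 0.0019). Of 14 tested genes annotated to its positive regulation, the chemokine receptor Ccr1 (1.51-fold, adjusted p = 3.5e-04) and Notch2 (1.23-fold, adjusted p = 0.021) rose, while Ocstamp and Gnas, the stimulatory G protein subunit (1.24-fold, adjusted p = 0.0017), were lower, with a median of -0.11.

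Of 21 tested genes annotated to negative regulation of osteoclast differentiation, 0 were called, with a median of 0.09. Of 15 tested bone resorption genes, Acp5 and Ctss (cathepsin S, 7262 ± 207 to 6425 ± 352 CPM; adjusted p = 0.042; SD, n = 3) were called lower and 0 higher. The term for positive regulation of macrophage fusion held 4 tested genes, of which Ocstamp and Dcstamp were lower and Tyrobp was not called.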
